A study of Mus musculus with 10 samples.

Results

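The genes described here are 39 mouse genes of glucose breakdown and pyruvate oxidation: the carriers, hexokinases and enzymes of glycolysis, the entry of pyruvate into mitochondria, the enzymes of the tricarboxylic acid (TCA) cycle, and their regulators Hif1a and Pdk1. They were taken by symbol from the 43432 genes of the deposited count table, all 39 were found, and all 39 passed the filter on low counts, the lowest count being 370 (Acod1 in a DMSO library). RNA was sequenced from RAW264.7 cells, an established mouse macrophage-like line, so every value comes from 1 cell line. Cells were pretreated for 1 h with DMSO or with the cyanobacterial 7(E)-9-keto-hexadec-7-enoic fatty acid, which has a keto group next to a double bond, then stimulated with lipopolysaccharide (LPS), and RNA was taken after 12 h. The paper gives these times for its RNA extraction and RT-qPCR, and its sequencing methods give none. The 5 conditions were DMSO (0.5%) without LPS, DMSO (0.5%) with LPS (1 µg/mL), and the fatty acid at 3.2, 10 or 32 µM with LPS (1 µg/mL), each as 2 libraries that the labels number as biological replicates. No condition held the fatty acid without LPS, so its effect could be measured only in stimulated cells.

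Glycolysis splits glucose into pyruvate in the cytosol. Pyruvate is then reduced to lactate, oxidised to acetyl-CoA by the pyruvate dehydrogenase complex, or carboxylated to oxaloacetate by pyruvate carboxylase, and acetyl-CoA is burned in the TCA cycle. Macrophages stimulated with LPS are known for raised glucose uptake and lactate output, and for an interrupted TCA cycle in which cis-aconitate is diverted to itaconate, a metabolite that modifies Keap1 and activates Nrf2. Hypoxia-inducible factor 1 (HIF-1, with the subunit encoded by Hif1a) drives many glycolytic genes, among them the glucose carrier gene Slc2a1, through the sequence core ACGTG or GCGTG.

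Library totals ran from 45966803 to 58976377 counts, and the 39 genes took 1.87% to 2.42% of them. Levels are given as CPM, counts scaled to a common library size by the trimmed-mean (TMM) method. A level of 100 CPM carries a counting error of 1.47% in the smallest library. Nos2, the inducible nitric oxide synthase, was at most 0.034 CPM in DMSO and 202 to 209.6 CPM in DMSO + LPS. Nqo1, a known Nrf2 target, went from 2.58 to 2.65 CPM in DMSO + LPS to 16.1 to 16.3 CPM at 32 µM. The macrophage markers Lyz2 (2585 to 6841 CPM) and Cd68 (599 to 723 CPM) were abundant in every library. The 8 macrophage markers looked at summed to 10445 to 11328 CPM in DMSO, 9566 to 9657 in DMSO + LPS, 8846 to 9015 at 3.2 µM, 7780 to 8518 at 10 µM and 7284 to 7665 at 32 µM. Single markers went both ways with LPS: in the test described below, 4 of the 8 rose (25.2% of all genes) and 3 fell (25.8%). All 4 epithelial markers looked at (Epcam, Krt8, Krt18 and Cdh1) were present in replicate 1 of the 10 µM group, where they summed to 38.2 CPM, and in replicate 1 of the 3.2 µM group, where they summed to 5.78 CPM. In the other 8 libraries this sum was at most 0.085 CPM. The 4 fibroblast markers summed to 6.02 and 1.19 CPM in those same libraries and to at most 0.286 CPM elsewhere. Replicate 2 of the 32 µM group held 2.83% ribosomal RNA counts, against 0.153% to 0.333% in the others. Results at 10 µM are therefore also given without replicate 1 of that group.

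Promoter sequences of 4 genes are shown because 3 of them (Slc2a1, Pgk1 and Pdk1) carried the HIF-1 core and moved most with LPS among the members with a known HIF-1 link, and the fourth (Pcx) moved most with the fatty acid. Each runs from 250 bases before the RefSeq gene start to 50 after it on the plus strand of GRCm38.p6. In the first 3, capitals mark the HIF-1 core ACGTG or GCGTG read on either strand. In Pcx, capitals mark the core of the antioxidant response element bound by Nrf2 (TGANNNNGC, either strand). The windows are chr4:119108495-119108794 for Slc2a1, chrX:106186850-106187149 for Pgk1, chr2:71872974-71873273 for the first start of Pdk1 and chr19:4510222-4510521 for the first start of Pcx.
Slc2a1: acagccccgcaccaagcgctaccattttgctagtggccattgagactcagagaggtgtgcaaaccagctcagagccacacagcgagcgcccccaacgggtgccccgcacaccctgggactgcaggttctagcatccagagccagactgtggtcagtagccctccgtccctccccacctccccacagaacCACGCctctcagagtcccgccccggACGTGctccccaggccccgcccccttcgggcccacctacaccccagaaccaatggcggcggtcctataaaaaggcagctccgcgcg
Pgk1: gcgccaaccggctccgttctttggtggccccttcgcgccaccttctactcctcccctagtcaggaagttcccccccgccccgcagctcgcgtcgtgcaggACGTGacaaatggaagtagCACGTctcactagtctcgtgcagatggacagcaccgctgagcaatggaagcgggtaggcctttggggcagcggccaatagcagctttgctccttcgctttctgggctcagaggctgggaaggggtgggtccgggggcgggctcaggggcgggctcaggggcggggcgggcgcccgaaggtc
Pdk1: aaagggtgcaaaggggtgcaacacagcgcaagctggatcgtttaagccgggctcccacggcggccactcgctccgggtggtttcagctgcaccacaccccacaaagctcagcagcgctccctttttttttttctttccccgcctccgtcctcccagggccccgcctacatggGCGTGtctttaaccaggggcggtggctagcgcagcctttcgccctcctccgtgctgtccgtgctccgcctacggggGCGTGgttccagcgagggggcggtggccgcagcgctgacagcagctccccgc
Pcx: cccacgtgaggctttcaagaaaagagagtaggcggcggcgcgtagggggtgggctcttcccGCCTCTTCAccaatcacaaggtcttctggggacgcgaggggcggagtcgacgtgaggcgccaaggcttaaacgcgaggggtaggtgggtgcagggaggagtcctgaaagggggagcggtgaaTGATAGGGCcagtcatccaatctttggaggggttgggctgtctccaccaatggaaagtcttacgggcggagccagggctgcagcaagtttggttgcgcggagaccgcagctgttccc

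LPS moved this pathway in both directions. Comparing DMSO + LPS with DMSO, 26 of the 39 genes passed an adjusted p of 0.05 in edgeR's quasi-likelihood test with Benjamini-Hochberg adjustment over the 14172 genes tested, of which 17 rose and 9 fell. Among all genes tested, 25.2% rose and 25.8% fell, 50.9% in either direction. A change of at least 1.5-fold as well was reached by 8 that rose (14.6% of all genes) and 3 that fell (13.6%). Both DMSO + LPS libraries lay above both DMSO libraries for 21 members (38.2% of all genes) and below them for 12 (38.7%). The median log2 fold change was 0.11 over the members and 0.00 over all genes. The genes that rose most were Acod1, Slc2a1, Pgk1, Slc16a3, Pfkfb3, Hk2, Hk3 and Hif1a, that is glucose and lactate carriers, enzymes of glycolysis, their regulator and the itaconate enzyme. Those that fell most were Pdk1, Suclg2 and Idh2, a brake on pyruvate dehydrogenase and a pair of mitochondrial TCA cycle enzymes. Of the 26 calls, 19 were kept in each of 19 alternative fits, among them all 11 of at least 1.5-fold. Scaling by library size alone, which lowered the median change of all genes by 0.20 on the log2 scale, left 10 that rose and 15 that fell, against 17.3% and 39.2% of all genes. With 2 libraries against 2, an exact two-sided permutation test cannot go below p = 0.333, so every p from the 10-library edgeR fit rests on a spread pooled over the 5 conditions.

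**Figure D1:**
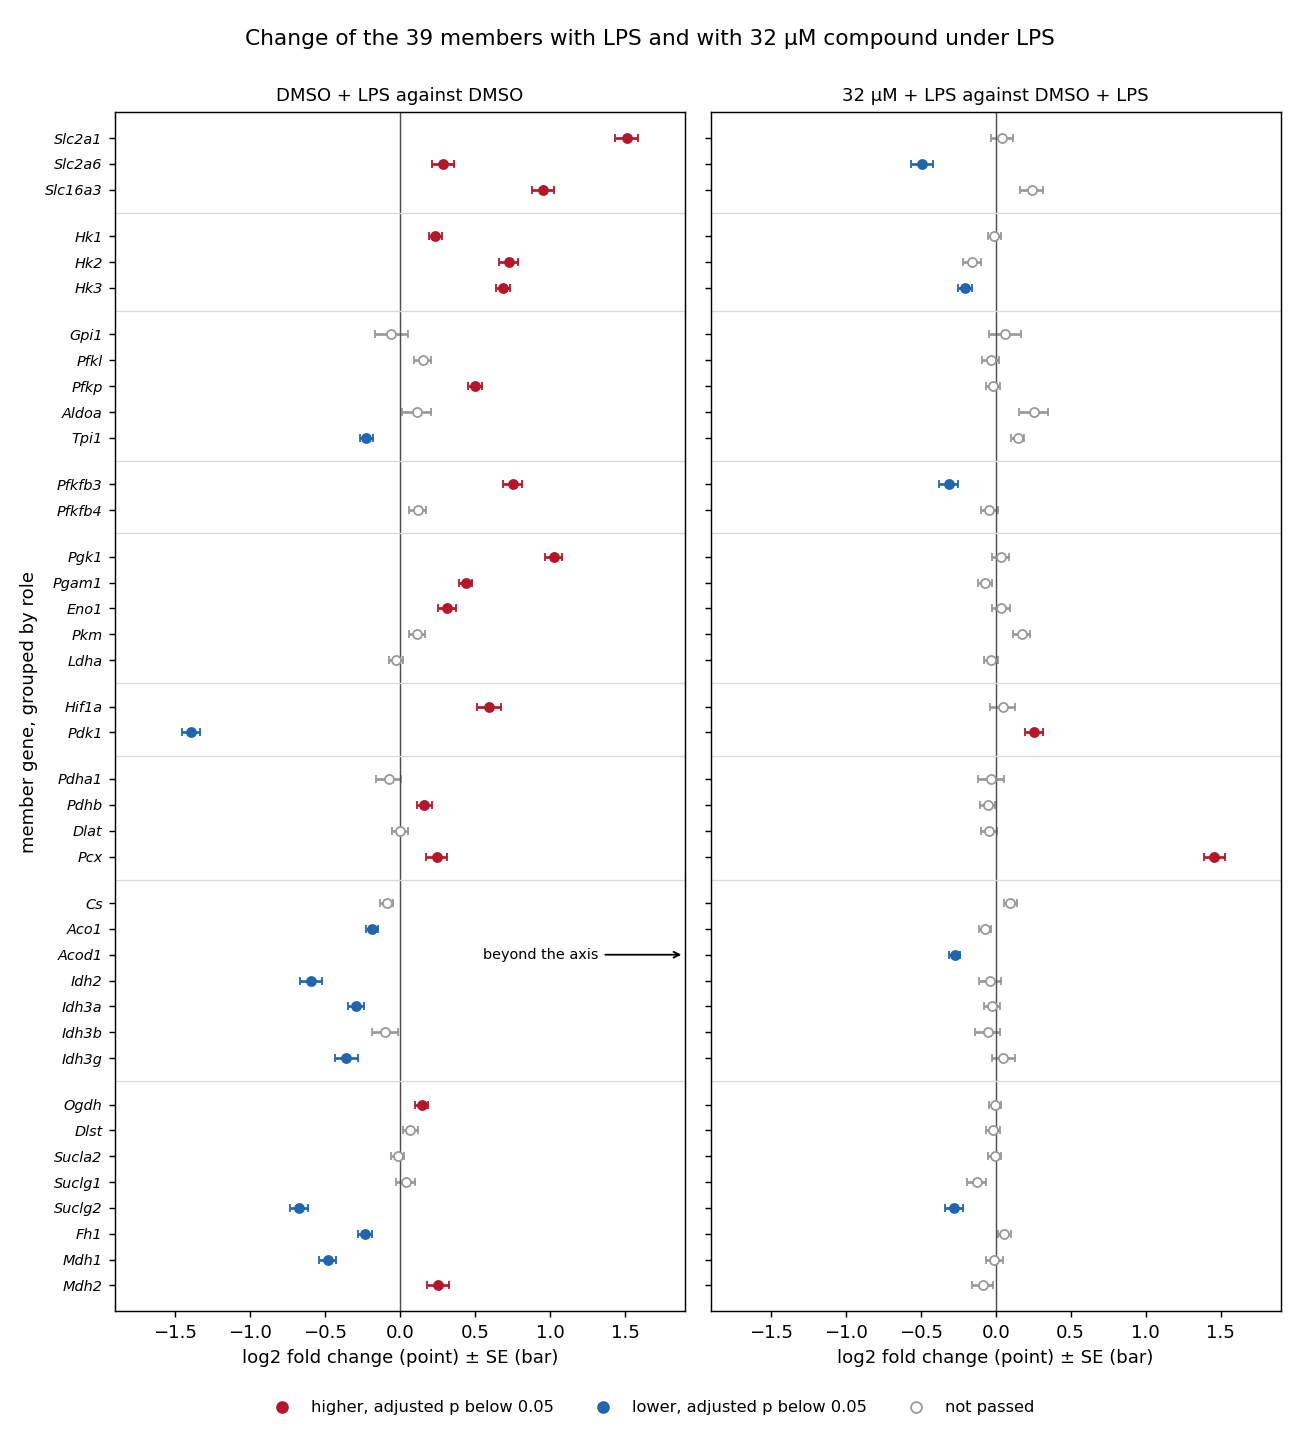
Log2 fold change of each member (horizontal axis, points, with bars of 1 standard error from the 10-library fit) for DMSO + LPS against DMSO on the left and for 32 µM + LPS against DMSO + LPS on the right, grouped by role from carriers (top) to the succinate side of the TCA cycle (bottom). Red and blue points passed an adjusted p of 0.05 as higher or lower, open grey points did not. Acod1, at 9.05 with LPS, lies beyond the left axis, and on the right Pcx stands alone at 1.46.

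All 3 carriers rose with LPS. Slc2a1 encodes the glucose carrier GLUT1, and was at 132 and 129.6 CPM in the DMSO libraries, 366 and 379 after LPS alone, 376 and 369 with 3.2 µM, 389.9 and 342 with 10 µM, then 404 and 362 with 32 µM. Every library with LPS was above every library without it. The rise in DMSO + LPS was 2.85-fold (log2 fold change 1.51 ± 0.08, standard error, n = 2 libraries a group, adjusted p = 1.26e-06 in the edgeR fit). Slc16a3, the lactate exporter MCT4, was at 72.7 and 72.4 CPM in the DMSO libraries, 138 and 143 after LPS alone, 151 and 156 with 3.2 µM, 166 and 144 with 10 µM, then 173 and 158 with 32 µM, again with no overlap between LPS and resting libraries. It rose 1.94-fold with LPS (0.95 ± 0.07, adjusted p = 1.72e-05). Slc2a6, the lysosomal hexose carrier GLUT6, was at 129 and 121 CPM in the DMSO libraries, 148 and 157 after LPS alone, 129.9 and 129.7 with 3.2 µM, 120.2 and 109.6 with 10 µM, then 115 and 102 with 32 µM. Its rise with LPS was small (0.29 ± 0.07, adjusted p = 0.0112) and did not pass in 3 of the 19 alternative fits, library size alone among them (adjusted p = 0.422, the highest of a range from 5.26e-04 to 0.422).

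The 3 hexokinase genes, whose products trap glucose as glucose-6-phosphate, rose too. Hk2, the inducible form, was at 80.2 and 90.5 CPM in the DMSO libraries, 141 and 141 after LPS alone, 136 and 139.6 with 3.2 µM, 135 and 143 with 10 µM, then 125 and 129 with 32 µM. Hk3 was at 140.02 and 136 CPM in the DMSO libraries, 219 and 226 after LPS alone, 209 and 214 with 3.2 µM, 189.9 and 193 with 10 µM, then 199 and 188 with 32 µM. In both genes the DMSO libraries lay below all others. The rises with LPS were 1.65-fold for Hk2 (0.73 ± 0.06, adjusted p = 3.21e-05) and 1.61-fold for Hk3 (0.69 ± 0.05, adjusted p = 6.65e-06). Hk1, the housekeeping form, went from 242 ± 6.59 to 285 ± 0.994 CPM (SD, n = 2), a change of 0.24 ± 0.04 (adjusted p = 0.00194) that did not pass when libraries were scaled by size alone (0.03, adjusted p = 0.655, over a range of 1.97e-06 to 0.655).

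Further down glycolysis the response was uneven. Pgk1, phosphoglycerate kinase, was at 892 and 798 CPM in the DMSO libraries, 1724 and 1713 after LPS alone, 1697 and 1756 with 3.2 µM, 1612 and 1631 with 10 µM, then 1799 and 1719 with 32 µM, with both DMSO libraries far under the rest, a rise of 2.03-fold (1.02 ± 0.06, adjusted p = 2.03e-06). Pfkfb3, which makes fructose-2,6-bisphosphate, the activator of phosphofructokinase, was at 24.2 and 26.2 CPM in the DMSO libraries, 43.7 and 41.04 after LPS alone, 41.1 and 39.6 with 3.2 µM, 36.9 and 35.4 with 10 µM, then 33.3 and 34.9 with 32 µM. It rose 1.68-fold with LPS (0.75 ± 0.06, adjusted p = 2.51e-05), and its DMSO libraries did not overlap the others. Ldha, which reduces pyruvate to lactate, was at 1184 and 1127 CPM in the DMSO libraries, 1116 and 1147 after LPS alone, 1157 and 1152 with 3.2 µM, 1193 and 1115 with 10 µM, then 1123 and 1091 with 32 µM. LPS and resting libraries overlapped for Ldha, and the difference was -0.03 ± 0.05 (adjusted p = 0.633, 95% interval -0.14 to 0.08). Smaller changes that passed were those of the phosphofructokinase gene Pfkp (0.50 ± 0.05, adjusted p = 4.06e-05), the mutase gene Pgam1 (0.44 ± 0.04, adjusted p = 8.29e-05) and the enolase gene Eno1 (0.31 ± 0.06, adjusted p = 0.00272), all upward, and of the triosephosphate isomerase gene Tpi1, downward (-0.22 ± 0.04, adjusted p = 0.00276). Eno1 is uncertain, since its transcript is 99.5% identical over 1736 bases to the annotated gene Eno1b, which held 17.9% as many counts, and 99.6% identical over 1302 bases to Gm4735, which held 10.4% as many. Its rise did not pass with library size alone. Pfkp shares 748 exonic bases with Pitrm1 on the opposite strand, and whether the counting used strand is not given in the sources used here. The other 5 glycolytic enzyme genes did not pass, with log2 changes of -0.06 for Gpi1, 0.15 for Pfkl, 0.12 for Pfkfb4, 0.11 for Aldoa and 0.11 for Pkm, the pyruvate kinase gene.

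The 2 regulators moved apart. Hif1a was at 102 and 108 CPM in the DMSO libraries, 161 and 155 after LPS alone, 156 and 157 with 3.2 µM, 139.5 and 162 with 10 µM, then 154 and 172 with 32 µM. LPS libraries were all above resting ones, and the rise was 1.51-fold (0.59 ± 0.08, adjusted p = 4.89e-04). Pdk1, a kinase that switches off pyruvate dehydrogenase and is a known HIF-1 target, was at 39.4 and 42.5 CPM in the DMSO libraries, 15.9 and 15.3 after LPS alone, 16.9 and 16.9 with 3.2 µM, 16.8 and 17.4 with 10 µM, then 18.3 and 18.9 with 32 µM. It fell 2.63-fold with LPS (-1.39 ± 0.06, adjusted p = 5.09e-07), and all 8 LPS libraries lay well below the lower DMSO library.

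**Figure D2:**
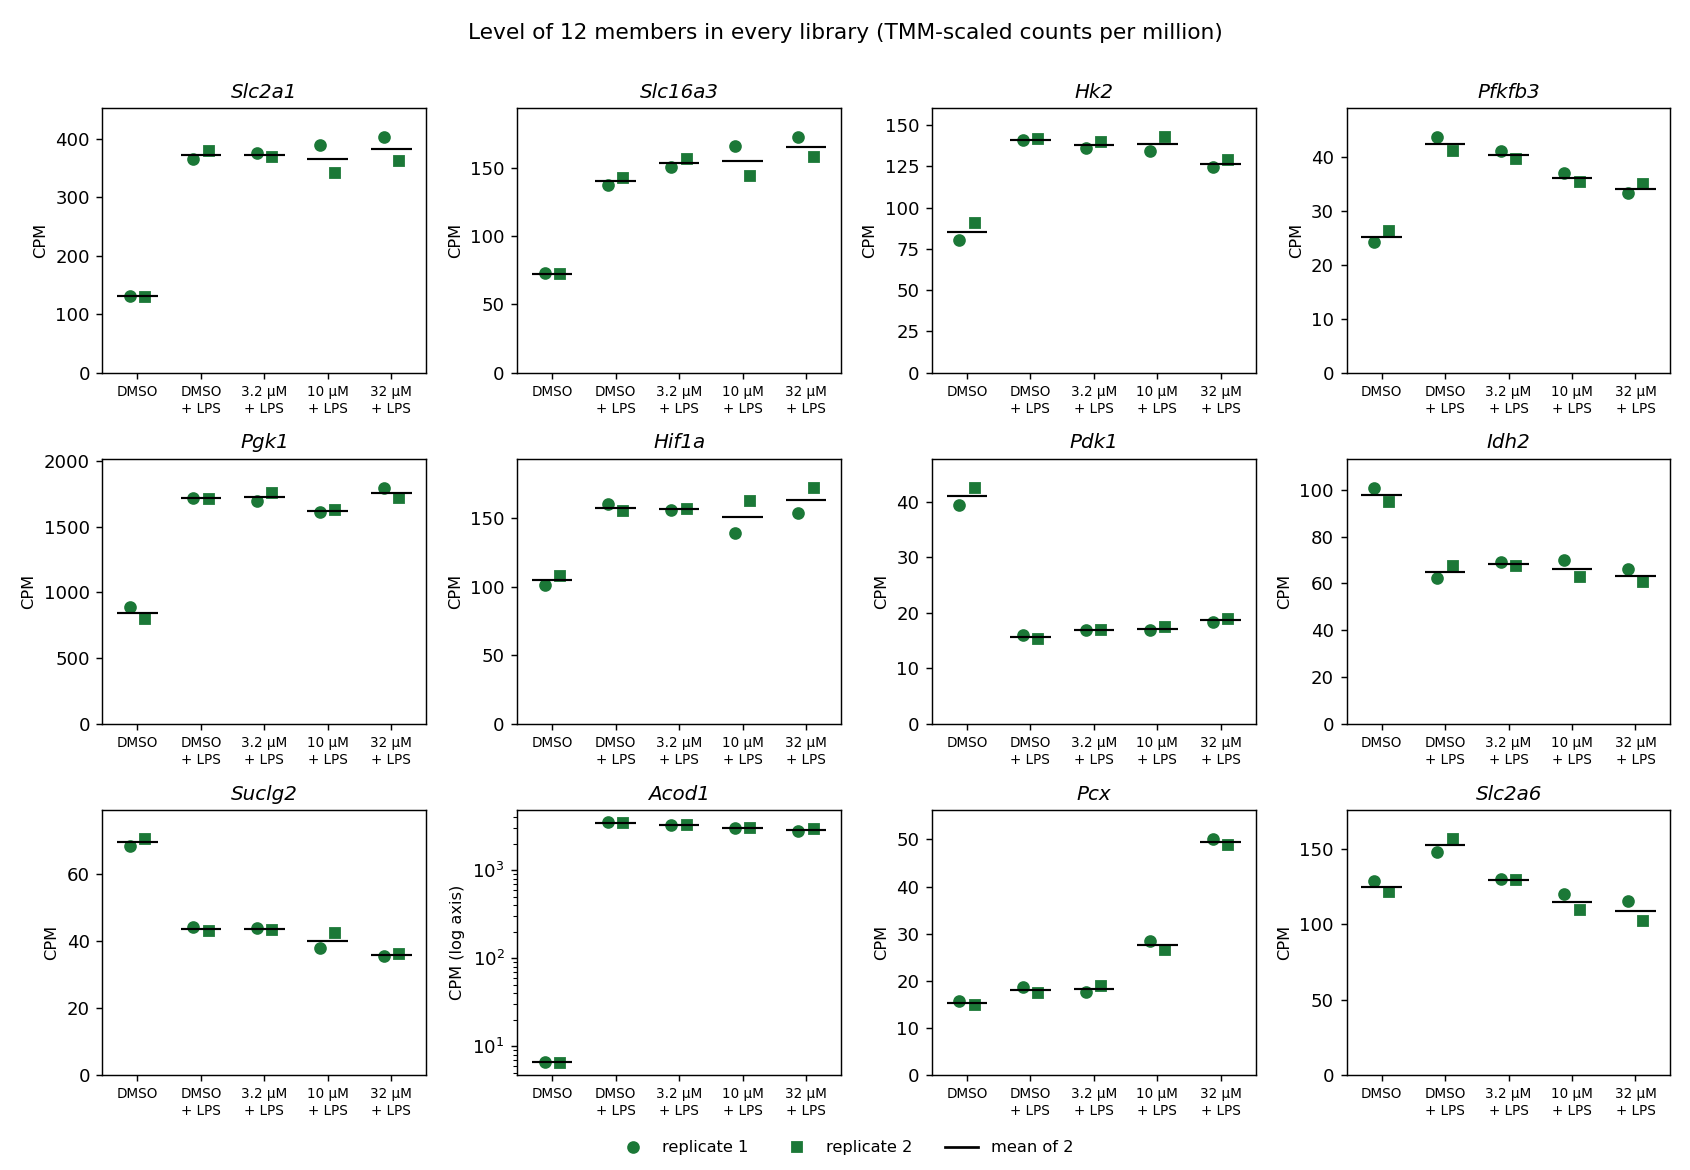
TMM-scaled CPM (vertical axes from 0, except a log axis for Acod1) of 12 members in the 10 libraries, by condition (horizontal axis). Circles and squares are replicates 1 and 2, and lines are the mean of 2. Libraries with LPS lie above the DMSO libraries for Slc2a1, Slc16a3, Hk2, Pfkfb3, Pgk1, Hif1a, Acod1 and Pcx and below them for Pdk1, Idh2 and Suclg2, and Pcx goes from a mean of 17.99 CPM in DMSO + LPS to 49.5 CPM at 32 µM.

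Where pyruvate enters the mitochondrion, changes with LPS were small. Of the pyruvate dehydrogenase subunits, Pdhb passed at 0.16 ± 0.05 (adjusted p = 0.0277), while Pdha1 (-0.08, adjusted p = 0.494) and Dlat (0.00, adjusted p = 0.997) did not. The Pdhb call was lost in 7 of the 19 alternative fits, and its change turned to -0.05 with library size alone. Pcx, pyruvate carboxylase, passed at 0.24 ± 0.07 (adjusted p = 0.0189) and failed in 3 of the 19 alternative fits.

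The largest change of all 39 genes was that of Acod1 (chr14:103046977-103056573, plus strand, GRCm38), which encodes the enzyme that makes itaconate from cis-aconitate. It was at 6.60 and 6.52 CPM in the DMSO libraries, 3494 and 3438 after LPS alone, 3261 and 3286 with 3.2 µM, 3008 and 3036 with 10 µM, then 2794 and 2945 with 32 µM. DMSO and LPS libraries were far apart, a 528-fold rise (9.05 ± 0.05, adjusted p = 4.13e-11). Of the 6 other genes on the citrate side, 4 fell, against 25.8% of all genes. Idh2, the mitochondrial NADP-linked isocitrate dehydrogenase, was at 101 and 94.97 CPM in the DMSO libraries, 62.4 and 67.4 after LPS alone, 69.3 and 67.3 with 3.2 µM, 69.98 and 62.6 with 10 µM, then 66.01 and 60.4 with 32 µM. It fell 1.51-fold (-0.59 ± 0.07, adjusted p = 2.73e-04), with the lower DMSO library above every LPS library. Idh3a, the catalytic subunit of the NAD-linked enzyme, was at 139 and 145 CPM in the DMSO libraries, 118 and 113 after LPS alone, 115 and 115 with 3.2 µM, 111 and 115 with 10 µM, then 109 and 118 with 32 µM, again without overlap, and fell by 0.30 on the log2 scale (adjusted p = 0.00207). Cs, citrate synthase, was at 408 and 391 CPM in the DMSO libraries, 380.5 and 371 after LPS alone, 378 and 375 with 3.2 µM, 397 and 381 with 10 µM, then 408 and 397 with 32 µM. Its DMSO and DMSO + LPS libraries did not overlap, but the difference of -0.09 ± 0.04 did not pass (adjusted p = 0.135, 95% interval -0.19 to 0.01). Idh3g (-0.36 ± 0.08, adjusted p = 0.00489) and the cytosolic aconitase gene Aco1 (-0.19 ± 0.04, adjusted p = 0.00509) fell as well, and Idh3b had -0.10 (adjusted p = 0.359).

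On the succinate side 3 of 8 genes fell and 2 rose, against 25.8% and 25.2% of all genes. Suclg2, the GTP-forming subunit of succinyl-CoA ligase, was at 68.6 and 70.7 CPM in the DMSO libraries, 44.1 and 42.9 after LPS alone, 43.99 and 43.3 with 3.2 µM, 37.8 and 42.3 with 10 µM, then 35.7 and 36.1 with 32 µM. No LPS library reached the DMSO level, and the fall was 1.60-fold (-0.68 ± 0.06, adjusted p = 3.56e-05). The cytosolic malate dehydrogenase gene Mdh1 (-0.48 ± 0.06, adjusted p = 2.11e-04) and the fumarase gene Fh1 (-0.23 ± 0.04, adjusted p = 0.0027) fell, and the mitochondrial malate dehydrogenase gene Mdh2 rose (0.25 ± 0.07, adjusted p = 0.0176). The Mdh2 call was lost in 4 of the 19 alternative fits (log2 change down to 0.05, adjusted p from 7.75e-04 to 0.644). Ogdh, of the oxoglutarate dehydrogenase complex, passed at 0.14 and lost the call in 6 of the 19 alternative fits, turning to -0.06 with library size alone. Its partner Dlst (0.07), Sucla2 (-0.02) and Suclg1 (0.04) did not pass.

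Per length of transcript, LPS set the glucose carriers apart. As CPM per kilobase of merged exons, a description without a test, Slc2a1 and Slc2a6 were close in DMSO (37.5 and 37.0 against 40.0 and 37.8), and Slc2a1 was above Slc2a6 with LPS (104 and 108 against 46.1 and 48.9). Per kilobase of the longest transcript their DMSO means were 40.05 ± 0.414 and 46.1 ± 1.91 (SD, n = 2), so the closeness in DMSO depends on the length used. Hk2 was the lowest of the 3 hexokinases in DMSO (13.4 and 15.2) and in DMSO + LPS (23.6 and 23.7). Hk3 was above Hk1 on this scale, at 59.4 and 61.3 against 33.4 and 33.3 in DMSO + LPS and at means of 37.5 against 28.3 in DMSO. Per kilobase of the longest transcript the means of Hk3 and Hk1 were 69.1 and 66.5 in DMSO + LPS and 42.9 and 56.5 in DMSO. Their order in DMSO thus depends on the length used, while in DMSO + LPS it was the same on both. Pfkl stayed above Pfkp, and Pfkfb4 above Pfkfb3, on both scales and in each of DMSO, DMSO + LPS and 32 µM.

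**Figure D3:**
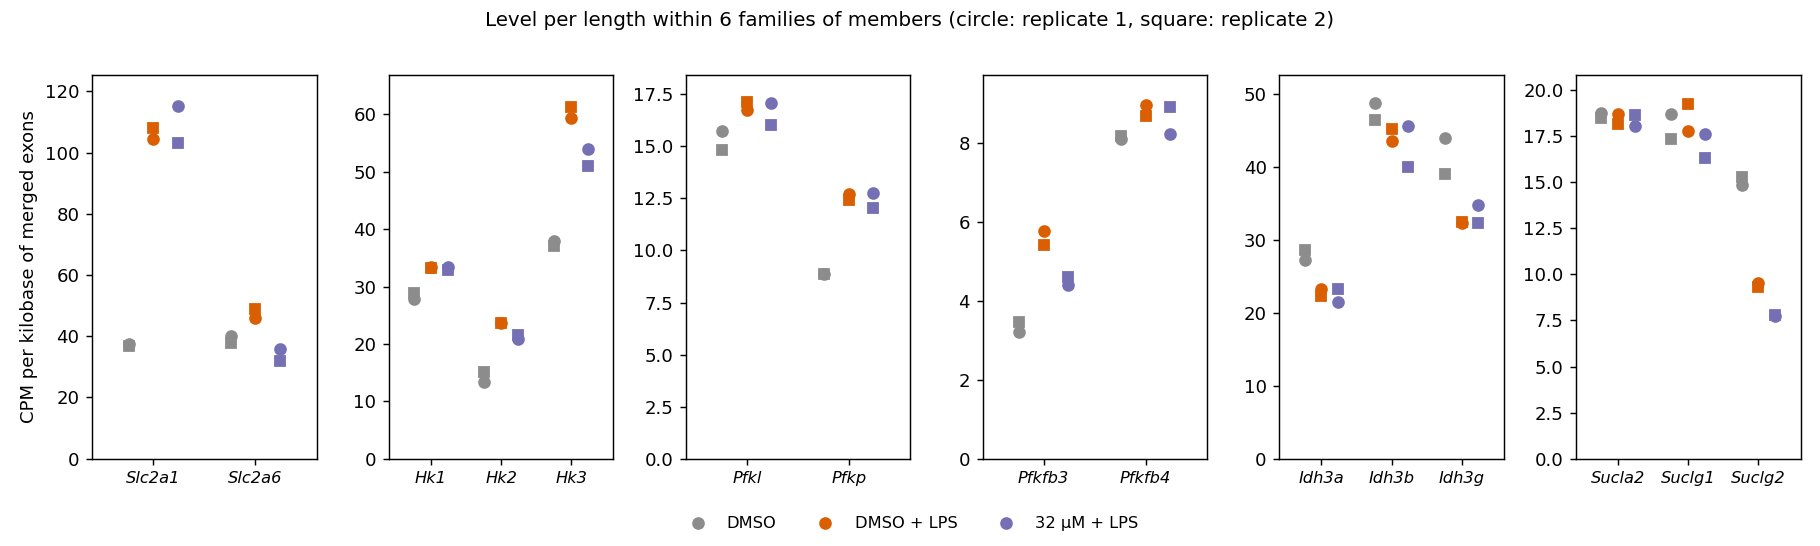
Level of members of 6 families in CPM per kilobase of merged exons (vertical axes from 0), for the 2 libraries each of DMSO (grey), DMSO + LPS (orange) and 32 µM + LPS (purple). Slc2a1 leaves the level of Slc2a6 with LPS, and Suclg2 lies below Sucla2 and Suclg1 in all 3 conditions.

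The fatty acid changed few of these genes. Against DMSO + LPS, 7 of the 39 genes passed at 32 µM, with 2 higher (4.06% of all genes were) and 5 lower (5.72%), and the background in either direction was 9.78%. Pcx and Pdk1 were higher. Slc2a6, Pfkfb3, Suclg2, Acod1 and Hk3 were lower. Pcx alone changed by 1.5-fold or more (4.18% of all genes did). Both 32 µM libraries lay above both DMSO + LPS libraries for 8 members (25.7% of all genes) and below them for 12 (24.3%). Median log2 fold changes were -0.02 over the members and 0.01 over all genes. The remaining 32 genes, Slc2a1, Hk2, Ldha, Hif1a, Cs and Idh3a among them, did not pass. Of the 8 macrophage markers, 5 were lower at 32 µM (Fcgr1, Cd14, Itgam, Lyz2 and Adgre1) and 1 higher (Csf1r), and at 10 µM 4 were lower (1.7% of all genes) and 1 higher (0.967%). Their part in the members' changes was not tested.

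Pcx differed most between doses. Its product, pyruvate carboxylase, makes oxaloacetate, which refills the TCA cycle or leaves it for other syntheses. Its level was 15.6 and 14.8 CPM in the DMSO libraries, 18.7 and 17.3 after LPS alone, 17.6 and 18.9 with 3.2 µM, 28.5 and 26.5 with 10 µM, then 50.2 and 48.8 with 32 µM. Both 32 µM libraries were above both at 10 µM, and these above all 6 others, while 3.2 µM overlapped DMSO + LPS. At 32 µM the rise was 2.75-fold (1.46 ± 0.07, adjusted p = 9.25e-06), and it passed in each of the 19 alternative fits (adjusted p from 2.45e-50 to 4.79e-04). At 10 µM it was 1.53-fold (0.61 ± 0.07, adjusted p = 0.00408). Setting 32 µM against 10 µM directly, Pcx was the 1 member that passed, at 0.85 ± 0.07 (adjusted p = 5.47e-04; 2.76% of all genes passed in either direction and 0.804% were higher). That call was lost in 1 of the 19 alternative fits, edgeR on the 4 libraries compared (adjusted p = 0.0756). At 3.2 µM the difference was 0.02 ± 0.07 (adjusted p = 0.999, 95% interval -0.14 to 0.18).

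Part of what LPS had raised was lower with the fatty acid. The LPS response and the 32 µM comparison use the same 2 DMSO + LPS libraries with opposite sign, so the changes are not independent. Acod1 was -0.27 ± 0.04 on the log2 scale at 32 µM (adjusted p = 0.0022), a fall from 3466 ± 39.2 to 2869.7 ± 107 CPM (SD, n = 2), still 437-fold above resting cells. Slc2a6 fell from 153 ± 6.37 to 109 ± 9.36 CPM (-0.49 ± 0.07, adjusted p = 0.00422), so that both 32 µM libraries lay below both DMSO libraries. Acod1 and Slc2a6 kept this call in each of the 19 alternative fits. Pfkfb3 (-0.31 ± 0.06, adjusted p = 0.0168) and Hk3 (-0.20 ± 0.05, adjusted p = 0.0291) were lower, with 32 µM libraries between resting and DMSO + LPS levels. Among the 7 genes that passed at 32 µM, Suclg2 and Pdk1 were those that LPS had lowered. Suclg2 went further down (-0.28 ± 0.06, adjusted p = 0.0248) and Pdk1 went back up by a little (0.25 ± 0.06, adjusted p = 0.0358). Pfkfb3, Hk3, Suclg2 and Pdk1 each lost the call when any 1 of the 4 libraries compared was left out, and their adjusted p reached 0.144, 0.204, 0.182 and 0.233 at most over the alternative fits. Of the 19 fits, the call was lost in 6 for Pfkfb3, 10 for Hk3, 7 for Suclg2 and 11 for Pdk1. Without replicate 1 or replicate 2 of DMSO + LPS or of 32 µM, 3 members passed in each case, with 4.76% to 6.24% of all genes.

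**Figure D4:**
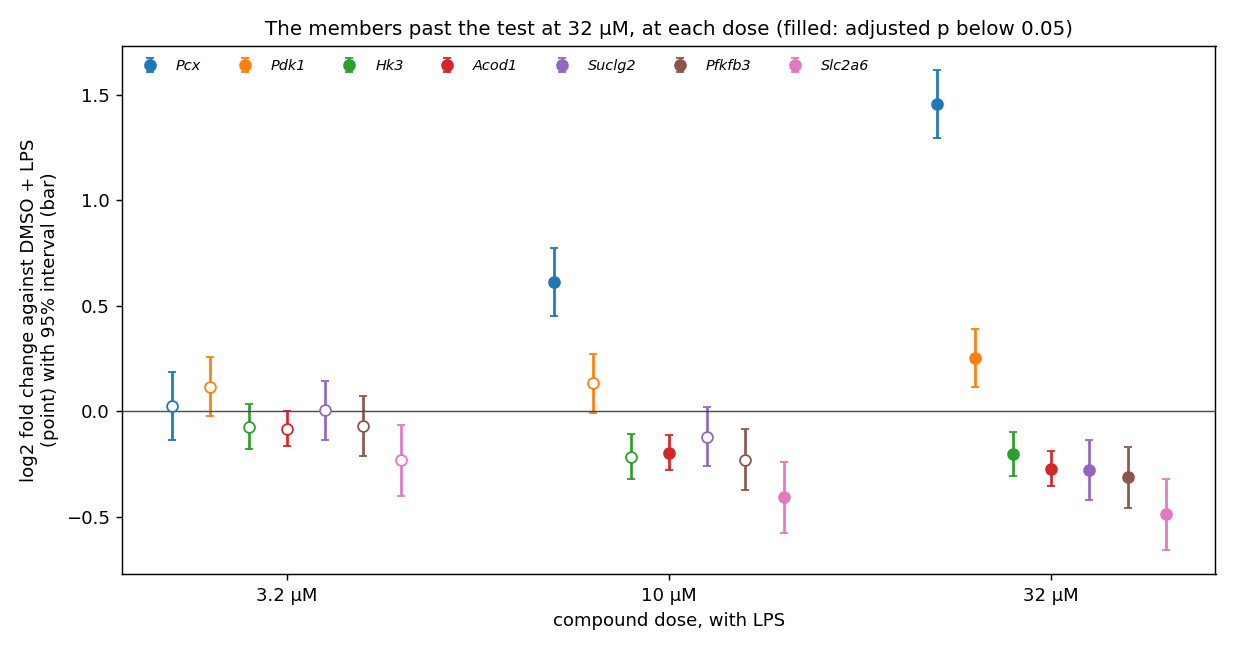
Log2 fold change against DMSO + LPS (vertical axis, points, with 95% intervals from the 10-library fit) of the 7 members that passed at 32 µM, at 3.2, 10 and 32 µM (horizontal axis). Filled points passed an adjusted p of 0.05. Pcx goes from 0.02 through 0.61 to 1.46, and the other 6 stay within -0.49 and 0.25.

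At 10 µM 3 members passed, Pcx higher (0.967% of all genes were) and Slc2a6 and Acod1 lower (1.7%), against 2.67% of all genes in either direction. The values were -0.41 ± 0.07 for Slc2a6 (adjusted p = 0.0294) and -0.20 ± 0.04 for Acod1 (adjusted p = 0.0302). Without replicate 1 of the 10 µM group, the library with the most epithelial marker RNA, Pcx was at 0.56 (adjusted p = 0.0248) and Slc2a6 at -0.48 (0.0439), both still past the test, and Acod1 at -0.19 (adjusted p = 0.131) was not. Without replicate 2 of that group Pcx alone passed (2.63% of all genes), and without replicate 2 of DMSO + LPS none of the 3 did (0.584%). Over all alternatives the adjusted p ran from 6.49e-08 to 0.095 for Pcx, 1.60e-06 to 0.234 for Slc2a6 and 9.58e-05 to 0.361 for Acod1. At 3.2 µM none of the 39 genes and 0% of all genes passed in edgeR, DESeq2's Wald test passed none of the 39 either (0.59% of all genes), and 1 member (Slc2a6, -0.23 ± 0.07) had an unadjusted p under 0.05, as had 4.23% of all genes. Slc2a6 did pass at 3.2 µM in 2 of the 19 alternative fits, edgeR on the 4 libraries compared (3.64% of all genes passed) and a fit with each library's score for short transcripts as a covariate (1.27%), with an adjusted p down to 0.00178. The 3 doses were measured against the same 2 DMSO + LPS libraries, so their changes are not independent of each other.

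Cells given 32 µM and LPS were also set against resting cells. Of the 39 genes 24 passed, with 16 higher (25.7% of all genes) and 8 lower (25.1%), and 50.9% of all genes passed in either direction. At least 1.5-fold higher were 6 (13.9% of all genes): Acod1 (8.77), Pcx (1.70), Slc2a1 (1.55), Slc16a3 (1.19), Pgk1 (1.06) and Hif1a (0.64), as log2 fold changes. At least 1.5-fold lower were 3 (13.3%): Pdk1 (-1.14), Suclg2 (-0.96) and Idh2 (-0.63). Those 9 passed in each of the 19 alternative fits, and 7 of the 24 calls were lost in at least 1 of them, that of Ogdh in 11, of Aldoa in 4 and of Fh1 in 3. Scaling by library size alone changed the split to 11 higher and 18 lower, against 17.2% and 37.5% of all genes. Hk2 (0.57) and Pfkfb3 (0.44) also remained above resting cells, and Slc2a6 was at -0.20 ± 0.07 (adjusted p = 0.0506). Slc2a6 passed as lower than resting cells in 9 of the 19 alternative fits (adjusted p from 1.38e-05 to 0.259).

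Other genes of the same pathway, 44 listed of which 42 were tested, were counted with LPS as 5 that rose (25.2% of all genes did), 21 that fell (25.8%) and 16 that did not pass, with a median log2 fold change of -0.18 against 0.00 over all genes. With library size alone 5 rose and 28 fell (17.3% and 39.2% of all genes). The smallest adjusted p belonged to Eno3, the enolase of muscle (-1.86 ± 0.10, adjusted p = 2.33e-06), and Slc2a3, the glucose carrier GLUT3 (-0.93 ± 0.07, adjusted p = 9.35e-06). Chosen after their values were seen, the 5 that rose were the enolase gene Eno2 (1.47), Pgm1 (0.57), Gapdh (0.56), the malic enzyme gene Me1 (0.53) and Acly (0.43), and among those that fell were the pyruvate dehydrogenase kinase genes Pdk2 (-1.87) and Pdk3 (-0.19) and the succinate dehydrogenase genes Sdha (-0.53), Sdhb (-0.38) and Sdhd (-0.35). The other gene of that complex, Sdhc, did not pass (0.01 ± 0.09, adjusted p = 0.949). At 32 µM against DMSO + LPS, 3 of the 42 rose (4.06% of all genes) and 2 fell (5.72%). Acly, which splits cytosolic citrate into acetyl-CoA and oxaloacetate, fell (-0.43 ± 0.04, adjusted p = 4.75e-04), as did the mitochondrial citrate carrier gene Slc25a1 (-0.44 ± 0.07, adjusted p = 0.00721). Pgm1, a phosphoglucomutase, rose (0.41 ± 0.05, adjusted p = 0.00197), as did Me1 (0.48 ± 0.08, adjusted p = 0.0092) and Pck2, the mitochondrial phosphoenolpyruvate carboxykinase gene (0.35 ± 0.05, adjusted p = 0.0049). Acly and Pgm1 passed in each of the 19 alternative fits, Slc25a1 in 18, Pck2 in 17 and Me1 in 16, and without replicate 2 of DMSO + LPS 1 of the 42 rose and 1 fell. None of the 42 passed at 10 µM (2.67% of all genes) or 3.2 µM (0%) in this fit, while at 10 µM DESeq2's Wald test called 2 lower (2.89% of all genes) and the fit with the short-transcript covariate 3 higher (5.38%) and 2 lower (6.3%).

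HIF-1 targets outside the pathway moved in both directions with LPS. Of 18, 6 rose (25.2% of all genes did), among them Adm 2.71, Ndrg1 2.43, Vegfa 1.86, P4ha2 1.68 and P4ha1 0.85. Another 5 fell (25.8%): Mxi1 -1.22, Car12 -1.12, Ddit4 -0.57, Bnip3l -0.54 and Egln1 -0.54. The other 7 did not pass. With at least 1.5-fold as well, 6 were higher (14.6% of all genes) and 2 lower (13.6%). The list's median was 0.04 against 0.00 over all genes. It was -0.06 with library size alone and ran from -0.09 to 0.14 over the alternative fits. At 32 µM against DMSO + LPS, 3 rose (4.06% of all genes did): the angiogenic factor gene Vegfa (0.56 ± 0.07, adjusted p = 0.00239), the vasodilator peptide gene Adm (1.51 ± 0.31, adjusted p = 0.0196) and the mitophagy receptor gene Bnip3l (0.23 ± 0.04, adjusted p = 0.0163). The Adm call passed in 12 of 18 alternative fits (adjusted p up to 0.172) and that of Bnip3l in 10 of 19 (up to 0.146). The list's median was then 0.17 against 0.01 over all genes, and it ran from 0.085 to 0.20 over the alternative fits.

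The HIF-1 core (ACGTG or GCGTG, either strand) was found in at least 1 promoter of 29 of the 38 members with a promoter in the RefSeq table (76.3%), against 52.3% of 17492 protein-coding genes. Idh3a had no entry. By response to LPS, the core was in all 17 that rose, in 5 of the 8 that fell and in 7 of the 13 that did not pass. A gene counted if any of its promoters held the core, and genes differed in their number of promoters. Counted by promoter, the core was in 39 of the members' 53 (73.6%), against 43.8% of 32851 for genes of any type. The same shares were not counted among all genes that rose or fell. Counted from the gene start, its left end was at -61 and -36 in Slc2a1, at -150 and -131 in Pgk1 and, in Pdk1, which fell, at -78 and -2. The Pdk1 positions are from its first start, and the window of its second start held no match. Members' promoters were richer in G and C than those of other genes (median 62.0% against 56.3% for protein-coding genes), and the shares are a description without a test. The antioxidant core was found in 21 of 38 members (55.3%, against 45.5%). Pcx had it at -189 and -67 from its first start, and the HIF-1 core at 3 positions of the same window. Of these positions, -248 and -247 overlap on opposite strands. The window of the second Pcx start held neither core.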

How the data were processed

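The authors deposited 1 table of raw counts per gene (Ensembl gene IDs, whole numbers) for the 10 libraries; the submitters' processing notes name Trimmomatic, FastQC, STAR, DESeq2 and build mm10. The counting program, its annotation, use of strand and all versions are not given in the sources used here. Symbols came from GENCODE M21 (42548 of 43432 IDs matched, the 884 others holding 0.0948% of counts). Library sizes, groups and replicate numbers followed the labels.

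Counts were analysed with edgeR 4.0.16 in R 4.3.3: 14172 genes passing filterByExpr (minimum count 10), TMM scaling, 1 mean per condition over all 10 libraries (5 residual degrees of freedom), the quasi-likelihood F test and Benjamini-Hochberg adjustment over all genes tested. A gene passed at an adjusted p under 0.05. Standard errors are the log2 fold change divided by the root of the F value. The biological coefficient of variation was 0.128. Alternatives covered scaling, filters, DESeq2 1.42.0, fewer libraries and added covariates. The scripts were tested on simulated data. Near-identical copies were sought among annotated transcripts (at least 95% identity over 300 bases).

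The members and gene lists were chosen with earlier results of these data known. Values in every library are given for members that passed with at least 1.5-fold in any comparison and for Slc2a1, Hk2, Pfkfb3, Ldha, Hif1a, Pdk1, Acod1, Idh3a and Cs, and up to 3 others per role by the smallest p. In bulk RNA, fewer cells of a type and less RNA per cell cannot be told apart. Replicates differed by more than counting noise. As chi-square over its degrees of freedom, the difference was 3.30 at 3.2 µM, 5.98 in DMSO + LPS, 37.6 in DMSO, 47.8 at 10 µM and 177 at 32 µM. The test used a spread pooled over these groups. Per gene length, merged exons of GENCODE M21 were used, and the longest transcript was added after the values were seen. Promoters are RefSeq's on GRCm38.p6.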

Additional observations from a re-analysis of the deposited data

How the results depend on the processing

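All choices were compared on the number of members passing, with the share of all genes passing in the same fit in parentheses. Leaving out 1 library at a time gave 21 to 27 members for LPS (37.8% to 52.4%), 3 to 8 at 32 µM (4.76% to 10.6%), 0 to 3 at 10 µM (0.551% to 2.63%), 0 to 0 at 3.2 µM (0% to 0.00665%), 1 to 1 for 32 against 10 µM (1.27% to 2.66%) and 21 to 26 for 32 µM with LPS against resting cells (39.4% to 52.3%). At 10 µM the count was 0 without DMSO + LPS replicate 2 (0.584%), and 1 without DMSO + LPS replicate 1 (0.551%), either 3.2 µM library (1.34% to 1.36%) or 10 µM replicate 2 (2.63%). At 32 µM it was 3 without either library of DMSO + LPS (4.76% to 4.79%) or of 32 µM (5.78% to 6.24%), and 4 without either 3.2 µM library (6.71% to 6.73%). Leaving out both libraries with epithelial markers, an alternative chosen after seeing the data, gave 4 at 32 µM (7.46%) and 0 at 10 µM (0.332%). edgeR on the 4 libraries compared gave 3 at 32 µM (7.38%), 0 at 10 µM (0.307%), 1 at 3.2 µM (3.64%) and 0 for 32 against 10 µM (0.0374%). Adding to the fit a score of each library for 1407 genes with transcripts under 1000 bases gave 14 at 32 µM (25.7%), 10 at 10 µM (11.7%), 1 at 3.2 µM (1.27%) and 8 for 32 against 10 µM (10.4%); that score ran from -0.37 to 0.28 and differed between replicates. Asking for 1.5-fold as well left 11 for LPS (28.2%), 1 at 32 µM (4.18%), 1 at 10 µM (0.861%) and 9 against resting cells (27.1%). The cause of these differences was not tested, other than fewer libraries or a stricter rule by construction.

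With library size alone, log2 changes with LPS turned to -0.047 for Pdhb, -0.21 for Dlat and -0.064 for Ogdh, and those of 32 µM against resting cells to -0.19 for Cs, -0.064 for Ogdh and -0.15 for Dlst; the median of all genes shifted by -0.20 in both. With the short-transcript score, Gpi1 against resting cells turned to -0.13.

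The replicate number was shared by label, with 2 numbers in all. Correlations between groups of their replicate differences were 0.40 to 0.47 among DMSO, 10 µM and 32 µM. They were 0.60 between 3.2 and 10 µM, 0.17 between 3.2 µM and DMSO and 0.07 between 3.2 and 32 µM. For DMSO + LPS with each other group they were -0.16 to -0.06. Whether equal numbers mark a shared batch was not tested. With the replicate block the counts were 27 for LPS (54.4%), 8 at 32 µM (11.3%), 3 at 10 µM (3.34%), 0 at 3.2 µM (0%), 1 for 32 against 10 µM (3.3%) and 26 against resting cells (53.9%).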
